A study of Mus musculus with 16 samples.

Results

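The 40 genes described here encode the enzymes of glycolysis (16 genes), the enzymes and carriers that make and move lactate and bring in glucose (6 genes), the pyruvate dehydrogenase complex (4 genes) and the citric acid cycle (14 genes) of the mouse. They were chosen by their gene symbols among the 46078 genes of a table of read counts, where all 40 were found. Tests covered the 14897 genes that reached 1 CPM (a count scaled to the library's total) in 3 or more libraries of any group, and all 40 genes passed this filter. By the study's labels the cells were cultured juxtaglomerular (JG) cells, the renin makers of the kidney's afferent arteriole, with YFP driven by the renin promoter. Control cultures received a microRNA precursor of a kind not found in mammals, treated cultures received miR-106b, and all were harvested 48 h later. Messenger RNA was taken by its polyA tail from 4 replicate cultures of each transfection, and RNA bound to Ago2, the protein that carries microRNAs in the RNA-induced silencing complex, was immunoprecipitated (Ago2-IP) from another 4 replicate cultures of each. The comparisons ask which RNAs change in amount with miR-106b and which change in their association with Ago2.

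The 4 groups are therefore control polyA RNA, miR-106b polyA RNA, control Ago2-IP RNA and miR-106b Ago2-IP RNA, with 4 libraries each. A library held 5692958 to 9459585 counts in control polyA RNA and 2815272 to 4554848 in miR-106b polyA RNA, so that the control libraries of this RNA were the deeper ones. Totals were 3501909 to 4616424 in control and 2579086 to 3450269 in miR-106b Ago2-IP RNA. Within miR-106b polyA RNA, replicate 1 lay farthest from the others, with a chi-square per gene between pairs of libraries of 18.2 to 27.3, where the other pairs of the group gave 6.22 to 12.0 and pairs of control polyA libraries 1.66 to 8.29. The renin gene Ren1 had 0 counts in all 16 libraries, while genes of heart muscle summed to 19259 to 94101 CPM. The level of Ren1 does not bear out the label of JG cells, and the origin of the cells was not tested. Gene positions are those of GENCODE M21 on GRCm38. Levels are given as normalised CPM, scaled by TMM within each kind of RNA, and replicates are listed in the order of their numbers.

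Glycolysis splits glucose into pyruvate in the cytosol, and pyruvate is either reduced to lactate or enters the mitochondria, where the pyruvate dehydrogenase complex makes acetyl-CoA for the citric acid cycle. Several of these steps have an enzyme that most cells make and a related enzyme, from another gene, that is made mainly in heart or skeletal muscle, and glucose uptake likewise has a widespread carrier and one of muscle and fat that responds to insulin. Heart muscle lives largely on oxidation in the mitochondria, while dividing cultured cells are known for a high rate of glycolysis.

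In polyA RNA, the genes of the citric acid cycle and of pyruvate dehydrogenase and the muscle-type forms of glycolysis were higher with miR-106b, and several widespread forms were lower. Of the 40 genes, edgeR's quasi-likelihood test called 26 higher and 6 lower, with a threshold of 0.05 on the p adjusted by Benjamini-Hochberg over all 14897 genes, and 8 did not pass it. Over all genes tested, 19% were higher and 21.5% lower by the same rule. Among all genes the number lower was 3198, and 1834, 1640 and 1707 without control replicate 1, 2 and 3, while 2836 were higher, and 2737, 2486 and 2579 without these. The median log2 fold change was 0.62 over the 40 genes and -0.05 over all genes. Every miR-106b library lay above every control library for 27 of the 40 genes, against 16.8% of all genes, and below for 7, against 21.6%. By role, 14 of 14 citric acid cycle genes and 4 of 4 pyruvate dehydrogenase genes rose, whereas of 16 glycolytic genes 5 rose and 4 fell, and of 6 genes for lactate and transport 3 rose and 2 fell. In such bulk samples, fewer cells of a type and less RNA per cell cannot be told apart. In 1 fit of all 16 libraries, which changes the scaling and the variance estimates together, the median of all genes moved from -0.05 to 0.07, and edgeR's test called 29 of the 40 genes higher and 5 lower. The number that were lower was 3 without control replicate 1, 2 or 3, without miR-106b replicate 1, or with DESeq2 size factors.

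The 40 genes together took 1.57, 1.49, 1.49 and 1.61% of the counts of the control polyA libraries and 1.57, 2.37, 2.0 and 2.17% of those with miR-106b. Replicate 1 of the miR-106b libraries overlapped the control libraries in this share, and the other 3 lay above them. In Ago2-IP RNA the share was 2.68% to 2.93% over the 8 libraries, more than in any polyA library and alike in both transfections.

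**Figure D1:**
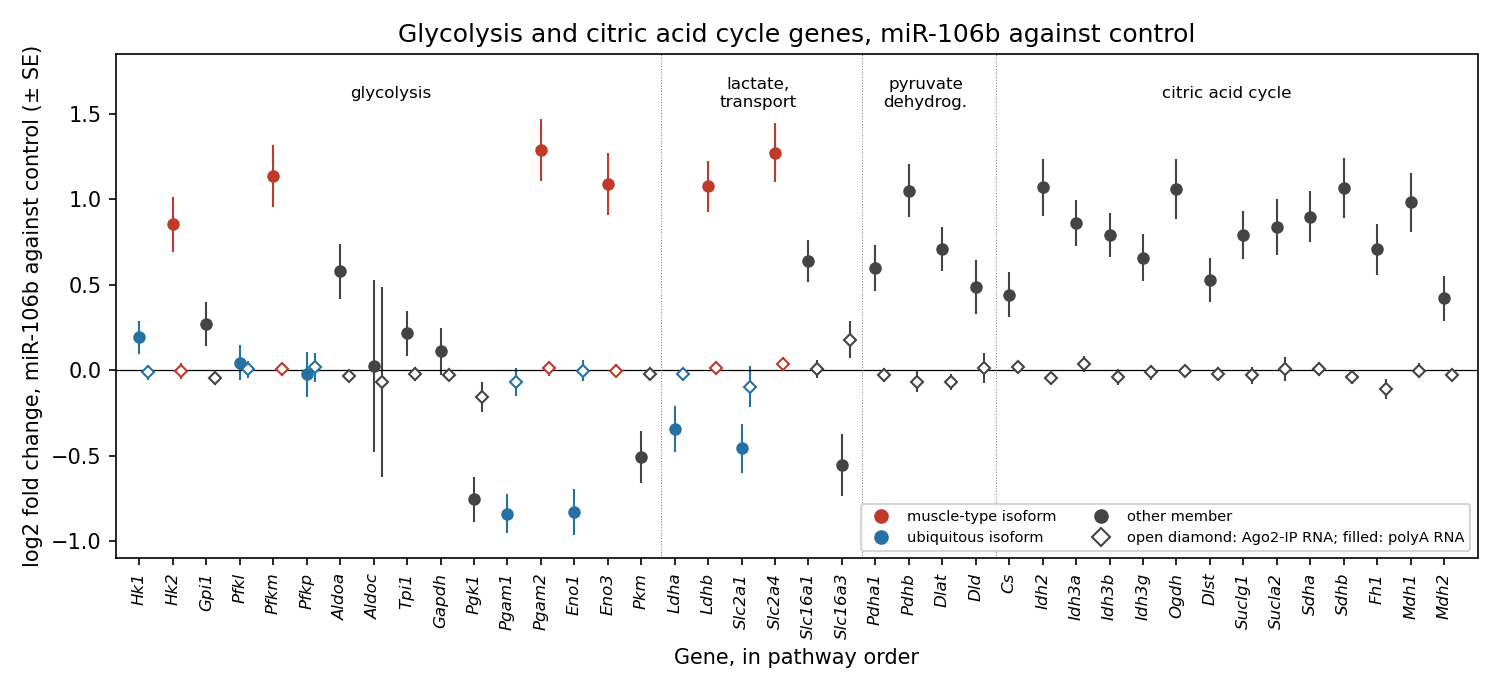
Fitted log2 fold change (miR-106b against control) of the 40 genes in pathway order, with bars of ± 1 standard error and 4 libraries per group. Filled circles are polyA RNA and open diamonds Ago2-IP RNA, with muscle-type forms in red and ubiquitous forms in blue: in polyA RNA the 6 muscle-type forms lie between 0.85 and 1.29, and in Ago2-IP RNA all 40 genes lie between -0.16 and 0.18.

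Marker genes of the labelled cell type and of other cell types were read in the same libraries. Ren1, the gene of renin and the defining product of JG cells, had 0 counts in each of the 16 libraries, which allows up to 0.317 CPM where depth was greatest and up to 1.16 CPM where it was least. This limit covers counting error only, since PCR copies of 1 molecule could not be recognised. Akr1b7, another gene of renin cells, had 6 counts in all. Of 10 genes of JG and other mural cells 8 were tested, and 5 were higher and 1 lower in polyA RNA, where Acta2 was the most abundant. The summed level of these 10 genes was 1600.0, 1655, 1530.0 and 1523 CPM in control and 1854, 1373, 1359 and 1631 CPM in miR-106b polyA libraries, with overlap, and 1093 to 1175 CPM in Ago2-IP libraries. Acta2 alone was at 638 to 838 CPM in control polyA and 243 to 263 CPM in control Ago2-IP libraries. Between these groups, 6 of the 8 tested genes were higher in Ago2-IP RNA and 2 lower in edgeR's test. Over all genes the shares were 35.1% and 34.6%. The median log2 difference was 1.56 over the 8 genes and -0.03 over all genes. The part of the mural genes in the results was not tested.

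Genes of heart muscle were abundant and moved with the groups. Of 17 such genes 16 were tested, and 15 were higher with miR-106b in polyA RNA, with a median log2 fold change of 1.23 over the 16. Their summed level was 24801, 19259, 20712 and 27481 CPM in the control and 38582, 66768, 45567 and 66206 CPM in the miR-106b polyA libraries. All miR-106b libraries were above all control libraries, and among them replicates 1 and 3 were the lower ones, as they were for the muscle forms below. In Ago2-IP RNA the sum was 88649.5 to 93909.7 CPM in control and 86164 to 94101 CPM with miR-106b, above every polyA library. Myh6, the myosin heavy chain of the adult mouse ventricle, was the most abundant, at 10689, 8309.5, 8959.5 and 11881 CPM in control polyA RNA. No heart marker was at 0 in all libraries, and Myl7, of the atrium, had 36 counts in total and did not pass the filter. Their part in the changes of the 40 genes was not tested.

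Skeletal muscle was listed with 11 genes, of which 10 were analysed. The other, the actin gene Acta1, was not found by its symbol, so its level is not known. The 10 genes summed to 2.06 to 3.36 CPM in control and 4.03 to 5.94 CPM in miR-106b polyA libraries. In Ago2-IP libraries they summed to at most 9.32 CPM, so that these 10 genes were near 0. Myh4 was the most abundant over all libraries together, and Tnnc2, Myog and Myod1 had 1, 3 and 5 counts in all libraries together. Only 2 of them were tested, and between transfections in polyA RNA edgeR's quasi-likelihood test gave neither of them an adjusted or unadjusted p below 0.05.

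Endothelial genes (7 of 7, most abundant Cdh5) and macrophage genes (6 of 7, most abundant Lyz2) were higher with miR-106b in polyA RNA, and no marker of these lists was at 0. The endothelial sum was 354, 272, 297 and 405 CPM in control and 526, 969.8, 660.1 and 923 CPM in miR-106b polyA libraries, and 1192 to 1319 CPM in Ago2-IP libraries. The macrophage sum was 172, 128, 139 and 184 CPM and 258, 393, 297 and 388 CPM in the same polyA groups, and 507 to 565 CPM in Ago2-IP libraries. Both sums were higher in every miR-106b than in every control polyA library.

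All 8 genes of proliferation were lower with miR-106b in polyA RNA, with none at 0, Mki67 the most abundant in each control polyA library and Mcm2 or Mki67 in those with miR-106b. They summed to 707, 802, 753 and 551 CPM in control and 125, 268, 381 and 125 CPM in miR-106b polyA libraries, with no overlap, and to 87.5 to 107 CPM in Ago2-IP libraries. Of 8 kidney tubule genes 4 were tested, with 1 lower, Aqp1 was the most abundant in all libraries but miR-106b polyA replicate 1, where Pax8 was, and Slc34a1 and Umod had 1 and 4 counts in total. Pax8 was at 163 to 197 CPM and Cdh16 at 127 to 249 CPM in control polyA libraries, and they were at 0.280 to 11.4 and 0.856 to 5.69 CPM in control Ago2-IP libraries. The tubule sum was 714, 749, 725 and 894 CPM in control, 688, 568, 689.6 and 740.1 CPM in miR-106b polyA libraries and 345 to 374 CPM in Ago2-IP libraries. Aqp1 made up nearly all of the Ago2-IP sum. Over the 4 tested tubule genes the median log2 difference of control Ago2-IP from control polyA RNA was -4.15, against -0.03 over all genes. Of these 4 genes 3 were lower in edgeR's test, against 34.6% of all genes. The part of these cell types and of proliferation in the results was not tested.

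The muscle-type and the ubiquitous forms of 6 steps were compared within each library, as the log2 ratio of their counts with 0.5 added to each, which does not depend on the scaling of libraries. For lactate dehydrogenase, the heart-type Ldhb was counted as muscle-type and Ldha as ubiquitous, although Ldha prevails in skeletal muscle. The pairs were tested by exact permutation in 3 comparisons, which gives 18 tests. In polyA RNA the ratio was higher with miR-106b for 6 of 6 pairs. Each of these 6 tests gave an exact p of 0.0286, the smallest that 4 against 4 libraries allow (two-sided), and an adjusted p of 0.0429 over the 18 exact tests, with every miR-106b library above every control library. Fold changes of single genes below come from edgeR's quasi-likelihood test.

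Hexokinase phosphorylates glucose as it enters the cell. Hk2 is the form of heart, skeletal muscle and fat, and Hk1 the form of most tissues. In polyA RNA, Hk2 (ENSMUSG00000000628, chromosome 6 from 82725024 to 82774454) was at 168, 136, 147 and 195 CPM in the control and at 219.5, 346, 259 and 341 CPM in the miR-106b libraries. For Hk1 (ENSMUSG00000037012, chromosome 10 from 62268854 to 62379908) the levels were 319.9, 325, 309 and 333 CPM and 347, 379, 366 and 379 CPM. Hk2 was higher in every miR-106b than in every control library, most in replicates 2 and 4. Hk1 was also a little higher in each of them, by a far smaller step. The log2 fold change was 0.85 for Hk2 (SE 0.162, adjusted p = 0.00153 in edgeR's test) and 0.19 for Hk1 (SE 0.0981, adjusted p = 0.139). Hk1 passed the threshold when edgeR fitted the 16 libraries together (0.32), in edgeR's test without miR-106b replicate 1 (0.30) and by the Wald test of DESeq2 (0.26). Hk2 made up 34.4, 29.5, 32.3 and 36.9% of the counts of both forms in control and 38.8, 47.8, 41.5 and 47.4% in miR-106b polyA libraries, a mean difference in log2 ratio of 0.65. Thus Hk1 had more counts than Hk2 in all 8 polyA libraries, and the share of Hk2 was 49.95 to 52.8% in the 8 Ago2-IP libraries.

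Phosphofructokinase makes fructose 1,6-bisphosphate, the committed and most regulated step of glycolysis, from muscle (Pfkm), liver (Pfkl) and platelet (Pfkp) subunits. In polyA RNA, Pfkm (ENSMUSG00000033065, chromosome 15 from 98092588 to 98132447) was at 326, 265, 268 and 353 CPM in the control and at 479, 808, 561 and 817 CPM in the miR-106b libraries. For Pfkl (ENSMUSG00000020277, chromosome 10 from 77986946 to 78010083) the levels were 239, 222, 229.8 and 234 CPM and 213, 260.1, 225 and 255 CPM. Pfkp (ENSMUSG00000021196, chromosome 13 from 6579767 to 6648777) had 65.0, 66.8, 66.6 and 69.3 CPM and 48.6, 70.1, 70.9 and 74.6 CPM. Pfkm was higher in all miR-106b libraries, most in replicates 2 and 4, while the groups overlapped for Pfkl and Pfkp. On the log2 scale the fold change was 1.14 for Pfkm (SE 0.179, adjusted p = 0.000694 in edgeR's test) and 0.04 for Pfkl (SE 0.104, adjusted p = 0.765). For Pfkp it was -0.02 (SE 0.132, adjusted p = 0.902 in edgeR's test), and the signs of Pfkl and Pfkp changed between settings. Pfkm made up 51.8, 47.9, 47.5 and 53.7% of the counts of the 3 forms in control and 64.7, 71.0, 65.5 and 71.2% in miR-106b polyA libraries, a mean difference in log2 ratio of 1.09. The share of Pfkm in the 8 Ago2-IP libraries, 74.2 to 76.5%, lay above all polyA libraries.

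Phosphoglycerate mutase moves the phosphate group within phosphoglycerate, through Pgam2 in muscle and Pgam1 elsewhere. In polyA RNA, Pgam2 (ENSMUSG00000020475, chromosome 11 from 5801639 to 5803733) was at 158, 120.0, 137 and 172 CPM in the control and at 257, 439, 299.8 and 439 CPM in the miR-106b libraries. For Pgam1 (ENSMUSG00000011752, chromosome 19 from 41911870 to 41918664) the levels were 303, 340.3, 328 and 283 CPM and 177, 162, 204 and 158 CPM. The forms moved apart, with Pgam2 higher and Pgam1 lower in all 4 miR-106b libraries and no overlap with control for either. The log2 fold change was 1.29 for Pgam2 (SE 0.182, adjusted p = 0.000683 in edgeR's test) and -0.84 for Pgam1 (SE 0.116, adjusted p = 0.000683). Pgam2 made up 34.3, 26.1, 29.5 and 37.8% of the counts of both forms in control and 59.2, 73.1, 59.5 and 73.5% in miR-106b polyA libraries, a mean difference in log2 ratio of 2.1. In control RNA Pgam1 had the larger share and with miR-106b Pgam2 had, and in Ago2-IP RNA Pgam2 took 86.8 to 89.3% in 8 of 8 libraries.

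Enolase makes phosphoenolpyruvate. Eno3 encodes the beta subunit of muscle and Eno1 the alpha subunit of most tissues. In polyA RNA, Eno3 (ENSMUSG00000060600, chromosome 11 from 70657201 to 70662513) was at 343, 279, 294 and 383 CPM in the control and at 488, 844, 594 and 838 CPM in the miR-106b libraries. For Eno1 (ENSMUSG00000063524, chromosome 4 from 150236720 to 150248879) the levels were 371, 417, 389 and 346 CPM and 193, 221, 265 and 177 CPM. Eno3 was higher and Eno1 lower in all 4 miR-106b libraries, without overlap, and replicate 4 stood at the low end for Eno1 and near the high end for Eno3. On the log2 scale the fold change was 1.09 for Eno3 (SE 0.181, adjusted p = 0.000800 in edgeR's test) and -0.83 for Eno1 (SE 0.134, adjusted p = 0.000745). Eno3 made up 48.0, 40.1, 43.1 and 52.6% of the counts of both forms in control and 71.6, 79.2, 69.2 and 82.6% in miR-106b polyA libraries, a mean difference in log2 ratio of 1.91. The Ago2-IP libraries held 88.4 to 89.1% Eno3 in both transfections, a narrow range above every polyA library.

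Lactate dehydrogenase interconverts pyruvate and lactate. Ldhb encodes the heart-type subunit, and Ldha the subunit that prevails in skeletal muscle and is found in most cultured cells. In polyA RNA, Ldhb (ENSMUSG00000030246, chromosome 6 from 142490248 to 142507957) was at 349, 299.9, 328 and 398 CPM in the control and at 632, 823, 584 and 859 CPM in the miR-106b libraries. For Ldha (ENSMUSG00000063229, chromosome 7 from 46841474 to 46855627) the levels were 739, 777, 726 and 736 CPM and 452, 667, 671 and 555 CPM. Ldhb was higher in all miR-106b libraries, and Ldha was lower in all of them, least in replicates 2 and 3. The log2 fold change was 1.08 for Ldhb (SE 0.150, adjusted p = 0.000683 in edgeR's test) and -0.34 for Ldha (SE 0.137, adjusted p = 0.0599). Ldha passed the threshold of edgeR's test where every library had to hold at least 10 counts (-0.37), without miR-106b replicate 2 (-0.41) and without replicate 3 (-0.42), while its value was -0.16 without replicate 1. Ldhb made up 32.1, 27.9, 31.1 and 35.1% of the counts of both forms in control and 58.3, 55.3, 46.5 and 60.7% in miR-106b polyA libraries, a mean difference in log2 ratio of 1.43. Replicate 3 of the miR-106b libraries stayed on the side of Ldha, and in Ago2-IP RNA Ldhb took 60.1 to 62.2%.

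Slc2a4 encodes GLUT4, the insulin-responsive glucose carrier of muscle and fat, and Slc2a1 encodes GLUT1, the widespread carrier. In polyA RNA, Slc2a4 (ENSMUSG00000018566, chromosome 11 from 69942538 to 69948188) was at 188, 149, 156 and 199 CPM in the control and at 302, 504, 356 and 512 CPM in the miR-106b libraries. For Slc2a1 (ENSMUSG00000028645, chromosome 4 from 119108710 to 119137983) the levels were 72.8, 69.2, 68.5 and 78.2 CPM and 43.7, 54.6, 68.5 and 43.0 CPM. Slc2a4 was higher in all miR-106b libraries. Slc2a1 was lower in each of them, with replicate 3 only just below the lowest control library. On the log2 scale the fold change was 1.27 for Slc2a4 (SE 0.175, adjusted p = 0.000683 in edgeR's test) and -0.46 for Slc2a1 (SE 0.145, adjusted p = 0.0236). The fall of Slc2a1 missed the threshold with DESeq2 size factors (-0.39), in DESeq2's Wald test (-0.39) and when edgeR fitted all 16 libraries (-0.33). It also missed it without control replicate 1, 2, 3 or 4 (-0.37, -0.39, -0.39 and -0.42) and without miR-106b replicate 1 (-0.29) or 4 (-0.38). Slc2a4 made up 72.1, 68.3, 69.4 and 71.8% of the counts of both forms in control and 87.4, 90.2, 83.9 and 92.2% in miR-106b polyA libraries, a mean difference in log2 ratio of 1.73. Slc2a4 had the larger share in every library, and in Ago2-IP RNA it reached 93.9 to 96.0%.

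**Figure D2:**
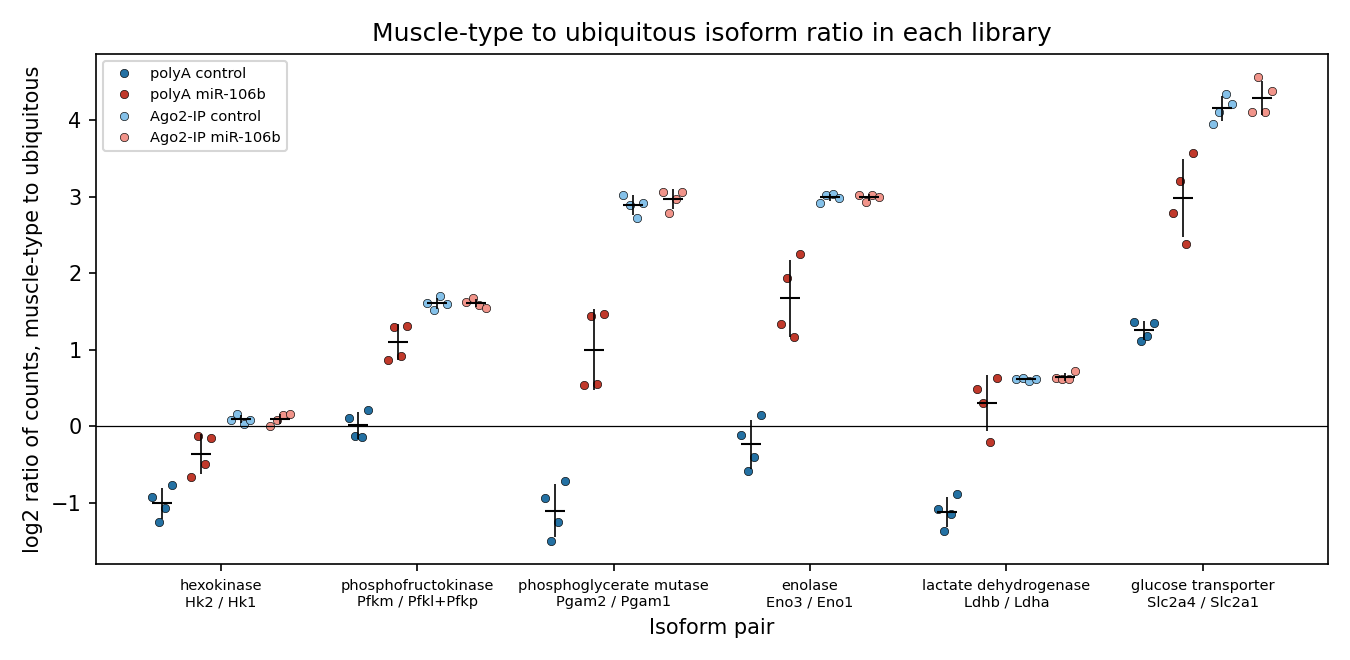
Log2 ratio of the counts of the muscle-type gene to those of the ubiquitous gene or genes in each of the 16 libraries, for 6 pairs, with 4 points per group and bars for the mean ± SD. In polyA RNA the miR-106b points lie above all control points in every pair, by a mean of 0.65 (hexokinase) to 2.1 (phosphoglycerate mutase), and the Ago2-IP points of the transfections overlap.

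Levels of different genes can be compared only per length, and the transcripts that these cells made are not known. Counts were therefore divided by all annotated exon bases of a gene and, in an alternative chosen after seeing the data, by its longest protein-coding transcript. By exon bases, Pgam2 and Pgam1 were at 175 ± 27.4 and 158 ± 13.0 CPM per kb in control (mean ± SD, n = 4 each) and at 427 ± 112 and 88.4 ± 10.6 CPM per kb in miR-106b polyA RNA. The log2 ratio of these levels was 0.14 in control and 2.27 with miR-106b, and -0.01 and 2.11 by the longest transcript. For Ldhb to Ldha it was -0.04 and 1.38 by exon bases and -0.64 and 0.78 by transcript, so that the control level of Ldhb relative to Ldha depended on the length. Eno3 to Eno1 gave 1.40 and 3.32 by exon bases and 0.15 and 2.07 by transcript, and in control Eno1 had more counts than Eno3 in 3 of 4 libraries. The order of Hk2 and Hk1 depended on the length in 3 of the 4 groups, with -0.48 in control and 0.18 in miR-106b polyA RNA by exon bases and -1.36 and -0.70 by transcript. In control Ago2-IP RNA the values for hexokinase were 0.61 and -0.28. Pfkm was above Pfkl and Pfkp, and Slc2a4 above Slc2a1, in all 4 groups by both lengths, at 1.39 and 0.76 for Pfkm to Pfkl and 1.27 and 1.63 for Slc2a4 to Slc2a1 in control polyA RNA. In Ago2-IP RNA the muscle-type form was above the ubiquitous ones by both lengths in 5 of the 6 pairs, all but hexokinase.

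**Figure D3:**
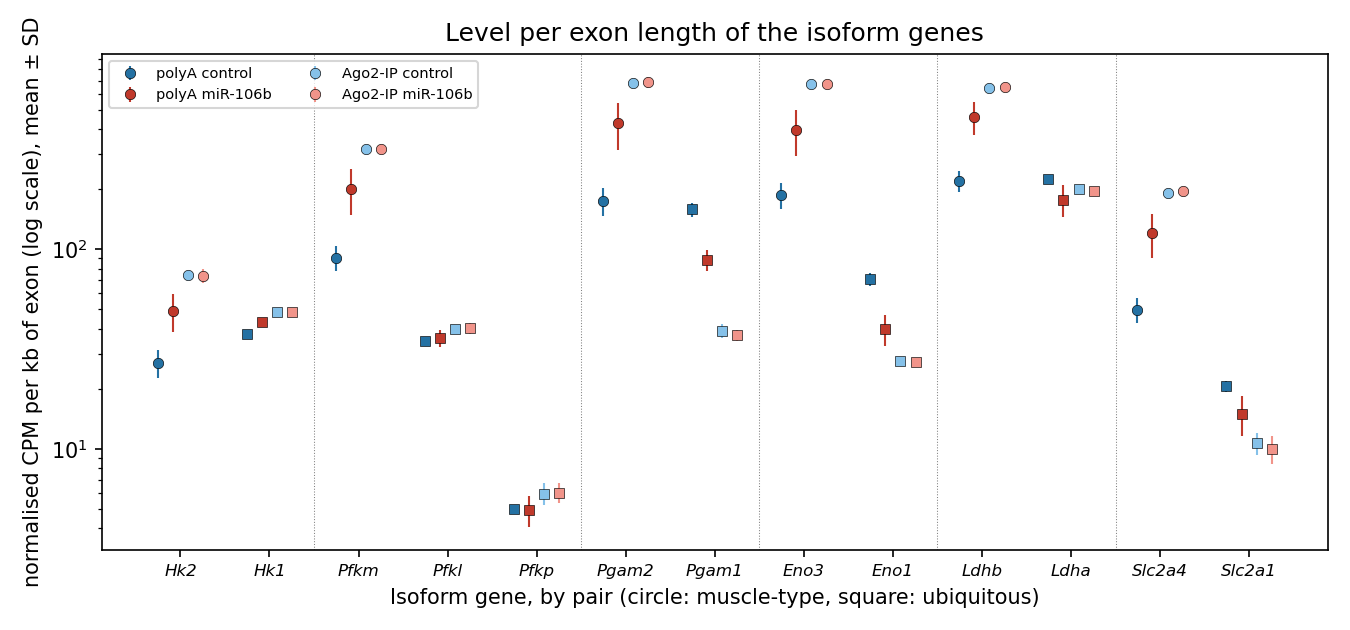
Level per kb of all annotated exon bases (normalised CPM per kb, log scale, mean ± SD of 4 libraries) of the 13 isoform genes in the 4 groups, with circles for muscle-type and squares for ubiquitous forms. Pgam1, Eno1 and Slc2a1 fall from control polyA RNA through miR-106b polyA RNA to Ago2-IP RNA, while the muscle-type forms rise in the same order. Levels were scaled within each kind of RNA, so the size of a step between kinds depends on the scaling. The median log2 difference of all genes between kinds in control was -0.34 with this scaling and -0.03 with TMM over all libraries.

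Of the other glycolytic genes, Pgk1 fell most. It encodes phosphoglycerate kinase, which makes ATP, and Pgk1 (ENSMUSG00000062070, chromosome X from 106187099 to 106203699) was at 134, 138, 141 and 121 CPM in control and 63.8, 89.4, 93.0 and 70.1 CPM in miR-106b polyA libraries. Every miR-106b library was below every control library, replicate 1 the most. Its log2 fold change was -0.76 (SE 0.132, adjusted p = 0.00100 in edgeR's test). Pkm, the pyruvate kinase gene whose M1 and M2 forms a count per gene cannot separate, was at 2628, 2711, 2640.3 and 2529 CPM and 1468, 2121, 2175 and 1631 CPM, lower in all miR-106b libraries. The log2 fold change of Pkm was -0.51, past the threshold of edgeR's test. That call was lost with DESeq2 size factors (-0.43), without control replicate 1, 2 or 3 (-0.42, -0.41 and -0.42) and without miR-106b replicate 1 (-0.33). Aldoa, the aldolase of muscle and many other tissues, rose, from 1899, 1751, 1759 and 2034 CPM to 2072, 3385, 2579.8 and 3077 CPM, with miR-106b replicate 1 just above the highest control library and replicate 2 the highest. The log2 fold change of Aldoa was 0.58, past the threshold of edgeR's test.

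Gpi1 (glucose-6-phosphate isomerase), Tpi1 (triose phosphate isomerase) and Gapdh (glyceraldehyde-3-phosphate dehydrogenase) had log2 fold changes of 0.27, 0.21 and 0.11 in polyA RNA, short of the threshold of edgeR's test. For all 3 genes, replicate 1 of the miR-106b libraries was the lowest of the 8 polyA libraries. Without that replicate they passed the threshold of edgeR's test, at 0.45, 0.39 and 0.29, while without replicate 2 they were at 0.19, 0.12 and 0.02. Gpi1 also passed it in DESeq2's Wald test (0.34), and so did Gpi1 and Tpi1 when edgeR fitted all 16 libraries (0.40 and 0.34). Aldoc, the aldolase of brain, was scarcely present, at 0.371 to 2.42 CPM over the 16 libraries, with a log2 fold change of 0.02 (SE 0.504) in polyA RNA, and its sign changed between settings.

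Lactate crosses the cell membrane through the carriers MCT1 (Slc16a1), common in oxidative tissue, and MCT4 (Slc16a3), typical of cells that export lactate. Slc16a1 was at 91.1, 78.2, 80.2 and 82.4 CPM in control and 111, 156, 115 and 135 CPM in miR-106b polyA libraries, and Slc16a3 at 70.4, 68.3, 67.9 and 79.3 CPM and 34.5, 57.3, 65.7 and 36.7 CPM. All miR-106b libraries were above control for the former and below control for the latter, for which replicates 2 and 3 came close to the control libraries. Slc16a1 had a log2 fold change of 0.64 and Slc16a3 of -0.55, both past the threshold of edgeR's test. The call of Slc16a3 was lost with DESeq2 size factors (-0.48), in DESeq2's Wald test (-0.48), without control replicate 1, 2, 3 or 4 (-0.47, -0.49, -0.49 and -0.50) and without miR-106b replicate 1 (-0.32) or 4 (-0.45).

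The 4 genes of the pyruvate dehydrogenase complex among the 40 all rose, namely the subunits of its pyruvate-splitting enzyme Pdha1 and Pdhb, the acetyltransferase Dlat and the dihydrolipoyl dehydrogenase Dld. Pdhb was at 50.1, 43.2, 47.1 and 55.3 CPM in control and 79.3, 118, 85.9 and 123 CPM in miR-106b polyA libraries, and Dlat at 162, 153, 147 and 166 CPM and 208, 298, 229 and 293 CPM. No miR-106b library overlapped the controls, and replicates 2 and 4 were the highest for each. The log2 fold changes were 1.05 for Pdhb, 0.71 for Dlat, 0.60 for Pdha1 and 0.48 for Dld. Dld missed the threshold without control replicate 4 (0.48) and without miR-106b replicate 2 (0.31) or 4 (0.48), and it also serves the 2-oxoglutarate dehydrogenase complex.

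In the citric acid cycle the rises ranged from 0.42 to 1.07 on the log2 scale, with a median of 0.81 over 14 genes. Idh2, the NADP-dependent isocitrate dehydrogenase of mitochondria, was at 514, 443, 454 and 586 CPM in control and 816, 1254, 876 and 1251 CPM in miR-106b polyA libraries. Its counterparts of the NAD-dependent enzyme rose by 0.86 (Idh3a), 0.79 (Idh3b) and 0.66 (Idh3g). Idh2 was higher in every miR-106b than in every control library, again with replicates 2 and 4 highest (log2 fold change 1.07). Of the 2-oxoglutarate dehydrogenase complex, Ogdh rose by 1.06 and the succinyltransferase Dlst by 0.53. Ogdh was at 953, 783, 823 and 1020.2 CPM and 1384, 2257, 1595 and 2241 CPM in the polyA groups, without overlap. The subunits of succinyl-CoA synthetase rose by 0.79 (Suclg1) and 0.84 (Sucla2), and those of succinate dehydrogenase, which is also complex II of the respiratory chain, by 0.90 (Sdha) and 1.07 (Sdhb).

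Fumarase (Fh1) rose by 0.71, and the cytosolic malate dehydrogenase Mdh1 by 0.98. Citrate synthase (Cs), which opens the cycle, and the mitochondrial malate dehydrogenase Mdh2, which closes it, had the smallest rises. Cs was at 643, 589.8, 577 and 614 CPM in control and 667, 968, 763 and 894 CPM in miR-106b polyA libraries, so that replicate 1 lay just above the highest control library (log2 fold change 0.44). Mdh2 changed by 0.42, likewise past the threshold of edgeR's test. Without miR-106b replicate 2, Cs (0.35) and Mdh2 (0.36) missed the threshold, and so did Mdh2 without replicate 4 (0.35). The 14 genes took 0.468, 0.414, 0.428 and 0.490% of all counts in control and 0.594, 0.905, 0.703 and 0.867% in miR-106b polyA libraries, with no overlap between the groups.

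In Ago2-IP RNA no difference was detected between transfections for any of the 40 genes. In edgeR's quasi-likelihood test 0 of 40 passed an adjusted p of 0.05, as did 0% of all 14897 genes, and 0 of 40 had an unadjusted p under 0.05, against 5.54% of all genes. DESeq2's Wald test and edgeR's likelihood ratio test also called 0 of the 40, while they called 2 and 18 of all genes. Without Ago2-IP control replicate 4 or miR-106b replicate 1 or 4, edgeR's test called 8, 4 and 40 of all genes, and 0 of the 40 in each. An unadjusted p under 0.05 was found for 1 of the 40 genes without control replicate 2 or miR-106b replicate 1 or 4, and for 2 without control replicate 4 or miR-106b replicate 3. With genes of low counts kept, 2 of the 40 had an unadjusted p under 0.05 and 0 passed the adjusted threshold, while 19 of all genes did. The groups overlapped for each of the 40 genes. Log2 fold changes ran from -0.16 for Pgk1 (SE 0.0863) to 0.18 for Slc16a3 (SE 0.110), and the lowest adjusted p in edgeR's test was 0.889. For the isoform pairs no difference was detected either, with exact p of 0.171 to 1 in the permutation tests and differences of at most 0.13 in log2 ratio. As an example, Pgam2 was at 563, 607, 538 and 583 CPM in control and 558, 539.7, 582 and 629.7 CPM in miR-106b Ago2-IP libraries, and Pgam1 at 69.0, 81.5, 81.6 and 76.8 CPM and 66.8, 77.8, 74.0 and 75.2 CPM. Within each gene these libraries lay close together and the groups overlapped.

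The Ago2:polyA ratio, the level in Ago2-IP RNA relative to polyA RNA, was compared between transfections as an interaction in a fit of all 16 libraries. It uses the same control and miR-106b polyA libraries as the comparison above, so that the results are not independent. By edgeR's quasi-likelihood test and the same threshold, the ratio was lower with miR-106b for 28 of the 40 genes and higher for 3, against 19.7% and 7.61% of all genes. The median log2 change was -0.77 over the 40 genes and -0.07 over all genes, a median that moved to 0.10 with scaling by library size only. Of the 40 genes, 5 were higher and 25 lower with library size only, with TMM within each kind of RNA, without the filter, and without polyA miR-106b replicate 2. In DESeq2's Wald test, and when replicate 3 of that group was left out, 5 were higher and 29 lower. All 6 muscle-type forms, 4 of 4 pyruvate dehydrogenase and 14 of 14 citric acid cycle genes had a lower ratio. So did 15 of 16 tested heart muscle markers (median -1.40), 7 of 7 endothelial (-1.40) and 5 of 7 macrophage markers (-1.37). Of 8 tested mural markers 6 were lower (-1.18), while of 8 proliferation genes 2 were higher and 0 lower (1.28). The part of these cell types in the ratio was not tested. Dld and Gpi1, at -0.62 and -0.46, missed the threshold with library size only (-0.45 and -0.29), with TMM within each kind (-0.47 and -0.31), without the filter (-0.47 and -0.32) and without polyA miR-106b replicate 2 (-0.34 and -0.28). The largest falls were those of Pgam2 (-1.42, SE 0.201, adjusted p = 2.78e-05 in edgeR's test), Slc2a4 (-1.38, SE 0.187, adjusted p = 2.03e-05) and Pfkm (-1.28, SE 0.192, adjusted p = 3.33e-05). For these genes the log2 fold change was 1.29, 1.27 and 1.14 in polyA RNA, beside 0.01, 0.04 and 0.00 in Ago2-IP RNA.

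The ratio was higher with miR-106b for Eno1 (0.68, SE 0.147, adjusted p = 0.00114 in edgeR's test), Pgam1 (0.62, SE 0.138, adjusted p = 0.00146) and Pgk1 (0.45, SE 0.161, adjusted p = 0.0385). Of the ubiquitous forms, Eno1 and Pgam1 were thus higher, Hk1 was lower (-0.35), and 4 did not pass. Pgk1 missed the threshold without polyA control replicate 1 (0.45), 2 (0.44) or 3 (0.42), polyA miR-106b replicate 1 (0.36) or 4 (0.40), Ago2-IP control replicate 2 (0.46) or 4 (0.40), and Ago2-IP miR-106b replicate 1 (0.46) or 3 (0.39). Hk1 missed it with DESeq2 size factors (-0.30), library size only (-0.18), no filter on low counts (-0.20) or TMM within each kind of RNA (-0.20). The same held for Hk1 without polyA control replicate 3 (-0.33), polyA miR-106b replicate 2 (-0.24), Ago2-IP control replicate 3 (-0.32) or Ago2-IP miR-106b replicate 2 (-0.32). Genes that did not pass with all libraries passed in some alternatives, such as Slc16a3 without polyA miR-106b replicate 2 (0.77) or 3 (0.76) or Ago2-IP miR-106b replicate 3 (0.65), and Pkm without polyA miR-106b replicate 2 (0.50) or 3 (0.42). Tpi1 did so without polyA miR-106b replicate 1 (-0.47) or 3 (-0.42), and Gapdh without replicate 1 (-0.38). Other scalings, filters or tests also brought Slc16a3 (0.59 to 0.75), Pkm (0.39 to 0.50) and Tpi1 (-0.33 in DESeq2's Wald test) past the threshold.

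Between kinds of RNA in control cells, edgeR's quasi-likelihood test found 32 of the 40 genes higher and 6 lower in Ago2-IP than in polyA RNA by the same threshold, against 35.1% and 34.6% of all genes. The kinds of RNA come from separate cultures and were prepared differently, so that the RNA kind and its preparation cannot be told apart. The median log2 difference was 1.49 over the 40 genes and -0.03 over all genes, and the median of all genes moved to -0.34 with TMM within each kind and to -0.35 with library size only. All 6 muscle-type forms were higher in Ago2-IP RNA, by 1.76 (Hk2) to 2.27 (Pgam2, SE 0.147, adjusted p = 7.45e-12 in edgeR's test). Slc2a4 was higher by 2.25 (SE 0.138, adjusted p = 2.47e-12 in edgeR's test) and Eno3 by 2.16 (SE 0.143, adjusted p = 4.95e-12). The 14 citric acid cycle genes were higher by 1.14 to 2.05, and the 4 pyruvate dehydrogenase genes by 1.33 to 1.95.

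Lower in Ago2-IP RNA were Pgam1 (-1.72, SE 0.0983, adjusted p = 1.44e-12 in edgeR's test), Eno1 (-1.06, SE 0.104, adjusted p = 2.68e-09), Slc2a1 (-0.65, SE 0.139, adjusted p = 0.000234), Slc16a3 (-0.62), Pgk1 (-0.56) and Pkm (-0.26). The same 6 genes were the 6 that fell with miR-106b in polyA RNA, a comparison that shares the control polyA libraries. How many would match through these shared libraries alone was not tested, so nothing is concluded from the match. Pkm missed the threshold of this test in 10 of the fits without 1 library, those without polyA control replicate 1, 2 or 3 (-0.26, -0.25 and -0.26), Ago2-IP control replicate 1, 2, 3 or 4 (-0.26, -0.27, -0.27 and -0.25) or Ago2-IP miR-106b replicate 1, 2 or 3 (-0.26 each). Of the ubiquitous forms, Hk1 (0.68), Pfkl (0.51) and Pfkp (0.56) were higher in Ago2-IP RNA, and Ldha did not pass (0.14, with a sign that changed between scalings). Pfkp missed the threshold with library size only (0.24) and TMM within each kind (0.25). These scalings lowered the values of the 40 genes by about as much as the median of all genes. With library size only, Slc2a1, Slc16a3, Pgk1 and Pkm were at -0.96, -0.94, -0.88 and -0.58, and Hk1 and Pfkl at 0.36 and 0.20, all still past the threshold of edgeR's test. In the isoform pairs the log2 ratio was higher in control Ago2-IP than in control polyA RNA by 1.10 (hexokinase), 1.59 (phosphofructokinase), 3.99 (phosphoglycerate mutase), 3.23 (enolase), 1.73 (lactate dehydrogenase) and 2.90 (glucose carriers). Each of the 6 had an exact p of 0.0286, the smallest possible, an adjusted p of 0.0429 over the 18 exact tests, and no overlap of the groups.

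Other genes of the same pathways were listed by function. Of 17 other glycolytic genes 13 were tested in polyA RNA, with 4 higher and 3 lower (median log2 fold change 0.30), against 19% higher and 21.5% lower over all genes (median -0.05). The phosphoglucomutase gene Pgm2 was higher (0.83), while its relative Pgm1 (-1.01), the ADP-using kinase Adpgk (-0.68) and the phosphatase Minpp1 (-0.50) were lower. Minpp1 missed the threshold without control replicate 1 (-0.37), 2 (-0.41) or 3 (-0.42). Of 11 regulators of glycolysis 10 were tested, with 4 higher and 1 lower (median 0.18). The transcription factor gene Epas1 (1.23), the muscle fructose bisphosphatase Fbp2 (1.20) and Txnip (0.87), which restrains glucose uptake, were higher, and Myc (-1.50), an activator of glycolytic genes in dividing cells, was lower.

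Of 11 genes for pyruvate entry and its regulation, 8 were higher and 1 lower (median 0.77), where 19% of all genes were higher and 21.5% lower. The kinases that switch off pyruvate dehydrogenase split, with Pdk2 (1.17) and Pdk4 (1.15) higher and Pdk3 (-0.82) lower, and the mitochondrial pyruvate carrier gene Mpc1 was higher (0.98). Pdk1, another of these kinases, was at 44.1, 32.4, 36.4 and 38.1 CPM in control polyA libraries. With miR-106b its levels were 54.7, 89.1, 72.6 and 77.5 CPM, above every control library. Pdk3 missed the threshold with all 16 libraries in edgeR's fit (-0.69). Of 12 other citric acid cycle genes 5 were higher and 0 lower in edgeR's test, with 6 at an unadjusted p under 0.05 (median 0.36). Among them were Ogdhl (1.30), a relative of Ogdh, and the succinate dehydrogenase subunit Sdhd (0.70).

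Of 18 genes of shuttles and of reactions that refill the cycle 17 were tested, with 8 higher and 7 lower (median -0.12), beside 19% and 21.5% of all genes. The glycerol phosphate shuttle split, with the cytosolic Gpd1 higher (1.29) and the mitochondrial Gpd2 lower (-1.33). The malic enzyme Me3 (0.99) and the aspartate aminotransferase Got1 (0.89) were higher, and the malic enzyme Me2 (-1.13) and the mitochondrial phosphoenolpyruvate carboxykinase Pck2 (-1.02) were lower. Of 12 genes of the hypoxia response 7 were higher and 1 lower (median 0.47), such as the prolyl hydroxylase Egln3 (1.12), the growth factor gene Vegfa (0.80) and adrenomedullin (Adm, 0.73), and the histone demethylase Kdm3a (-0.47), with the same shares over all genes. Without miR-106b replicate 1 the value of Adm was 0.47, still past the threshold of edgeR's test. Kdm3a, the lower one, missed the threshold when genes with low counts were kept (-0.45) and without control replicate 1 (-0.40), 2 (-0.38) or 3 (-0.34). In Ago2-IP RNA, 0 genes of these 6 lists passed edgeR's test between transfections, and an unadjusted p under 0.05 was found for 1 regulator of glycolysis, 1 gene of pyruvate entry, 1 of the shuttles, 1 of hypoxia and 0 of the other 2 lists.

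The libraries carry no strand information, so that reads of overlapping genes on opposite strands cannot be assigned. Of the 40 genes, 12 have exons that overlap those of another gene in the GENCODE M21 models. The overlap was largest in relation to counts for Pfkp, which had 5059 counts over all libraries where Pitrm1 had 4330, with 748 shared bases. Related genes and pseudogenes with similar names had at most 0.117% of the counts of the gene they resemble, except Ogdhl, with 8.52% of the counts of Ogdh, and reads shared between such genes remain uncertain.

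The transfected microRNA is shown with the sites it could pair with in these genes, since the treatment acts through its seed (bases 2 to 8, in capitals). The mature sequence in RefSeq (GRCm38.p6) lies on chromosome 5 from 138165787 to 138165807, minus strand, and 7 mature mouse microRNAs of the table, itself included, have this seed.

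mmu-miR-106b-5p: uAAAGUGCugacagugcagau

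A seed match was searched in the longest annotated 3′UTR of each gene (GENCODE M21 on GRCm38), as GCACTTT or CACTTTA, which overlap in an 8mer site that holds both. Such a match was found in 5 of the 40 genes (12.5%) and in 2941 of 13222 tested genes with a 3′UTR (22.2%), with a median 3′UTR of 760 and 1222 bases. It was found in 0 of the 6 genes that fell in polyA RNA, 3 of the 26 that rose and 2 of the 8 that did not pass. An 8mer site stood in 2 genes, Slc2a4, which rose, and Pfkp, which did not pass, and these sites are shown with the matched bases in capitals.

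Slc2a4 3′UTR, chr11:69943291-69943320, minus strand: tttcctctacaGCACTTTAgccctctcttc

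Pfkp 3′UTR, chr13:6581361-6581390, minus strand: gttatttatcaGCACTTTAtggaagcaagc

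Aldoc, Idh3g and Fh1 had CACTTTA alone. A match describes the sequence only.

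Promoters were read because genes of a pathway moved together. RefSeq (GRCm38.p6) holds 300 bases around the start of 38 of the 40 genes, all but Slc2a4 and Idh3a, with 54 entries as some genes have several starts. They were searched on both strands for ACGTG, the core that the hypoxia-inducible factors are known to bind and which also lies within CACGTG, the E box of Myc and related factors. ACGTG was found in 18 of the 38 genes (47.4%) in at least 1 entry, against 21.8% of 27025 genes and 19.6% of 32851 entries of the whole table. It was present in 5 of the 6 genes that fell in polyA RNA, namely Pgk1, Pgam1, Pkm, Slc2a1 and Slc16a3 but not Eno1, in 9 of 24 that rose and in 4 of 8 that did not pass. CACGTG was found in 4 of the 38 genes (10.5%), against 8.09% of the 27025 genes. This longer match was present in 0 of the 6 genes that fell, in 3 of 24 that rose and in 1 of 8 that did not pass. The shares over the 27025 genes include genes that did not pass the filter on counts, which all 40 genes passed. Shares over the tested genes alone were not taken, so the 40 genes are not compared with genes of like expression. The entries of Pgk1 and of both phosphoglycerate mutases are shown, with ACGTG or its reverse complement in capitals, as genes that moved in opposite directions.

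Pgk1, chrX:106186850-106187149, plus strand: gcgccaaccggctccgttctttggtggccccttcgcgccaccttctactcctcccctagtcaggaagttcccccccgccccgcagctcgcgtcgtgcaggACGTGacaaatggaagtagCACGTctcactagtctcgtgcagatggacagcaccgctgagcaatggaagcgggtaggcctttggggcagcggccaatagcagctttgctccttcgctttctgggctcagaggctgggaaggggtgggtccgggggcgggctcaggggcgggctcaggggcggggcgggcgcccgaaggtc

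Pgam1, chr19:41911621-41911920, plus strand: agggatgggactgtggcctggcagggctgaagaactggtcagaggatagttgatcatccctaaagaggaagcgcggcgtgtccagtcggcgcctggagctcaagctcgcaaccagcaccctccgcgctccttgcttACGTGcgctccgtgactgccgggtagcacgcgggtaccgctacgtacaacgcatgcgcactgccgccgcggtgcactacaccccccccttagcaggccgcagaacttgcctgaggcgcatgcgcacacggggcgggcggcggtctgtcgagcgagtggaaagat

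Pgam2, chr11:5803747-5804046, minus strand: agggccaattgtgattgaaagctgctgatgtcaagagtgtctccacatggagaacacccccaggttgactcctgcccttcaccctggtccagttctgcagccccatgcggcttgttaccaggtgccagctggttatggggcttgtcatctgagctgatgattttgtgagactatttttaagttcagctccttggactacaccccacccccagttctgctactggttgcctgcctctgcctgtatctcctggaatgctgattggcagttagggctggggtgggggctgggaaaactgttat

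Pgk1 holds the letters in 2 places and Pgam1 in 1, and Pgam2 holds none in this window. A match is a description and no site of binding.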

How the data were processed

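The deposited table holds read counts per gene in 16 libraries, which the authors made from alignments with TopHat2, and the counts were used as given. The 40 genes, the isoform pairs and the marker lists were chosen with earlier results of these data known. Genes had to reach 1 CPM in at least 3 of the 4 libraries of any group. Groups were compared with edgeR 4.0.16 in R 4.3.3 (TMM scaling, robust quasi-likelihood F test, two-sided, Benjamini-Hochberg over 14897 genes, threshold 0.05), separately in polyA and Ago2-IP RNA, while the ratio and the kinds of RNA were tested in a fit of 16 libraries. Isoform ratios were compared by two-sided exact permutation tests. The fits were tested on simulated data, where recovery for the ratio at 2-fold was below the requirement first set, which was then applied at 3-fold, so that a ratio that did not pass is not shown to be unchanged. Full statistics are given for the isoform pairs and, in each comparison with calls, for the 3 genes with the largest rise and fall, and other genes with levels per library were chosen after their values were seen. Of each list of other pathway genes, the called genes named are among the 3 largest changes each way. Alternatives were other scalings, filters and tests (DESeq2 1.42.0), the replicate number as a block and leaving out each library, and for levels per length the longest protein-coding transcript. Gene models were GENCODE M21, and microRNA and promoter sequences RefSeq (GRCm38.p6).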

Additional observations from a re-analysis of the deposited data

Results flagged for a closer look

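In 6 of 184 groups of 4 libraries tested (3.26%), 1 library lay far from the other 3 by Dixon's criterion at 95%, where chance gives about 5%, or 1 in 20 groups. All 6 were in Ago2-IP RNA and concerned replicate 4. In control, Pfkm was at 1007 CPM, with the other 3 at 1069 to 1077 CPM, Pdhb was at 138 CPM, with the other 3 at 156 to 159.8 CPM, and Idh3a was at 252 CPM, with the other 3 at 269.6 to 272 CPM. With miR-106b, Pkm was at 1812 CPM, with the other 3 at 1712 to 1725 CPM, and Ldhb was at 1099.9 CPM, with the other 3 at 981 to 994 CPM. The log2 ratio of Ldhb to Ldha in the same library was 0.72, with the other 3 at 0.62 to 0.63.

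For 10 genes of the isoform pairs and of the genes with the largest changes, the effect of miR-106b differed between Ago2-IP and polyA RNA in edgeR's test of the interaction. The log2 change of the Ago2:polyA ratio was -1.01 for Hk2, -0.35 for Hk1, -1.28 for Pfkm, 0.45 for Pgk1, -1.42 for Pgam2, 0.62 for Pgam1, -1.24 for Eno3, 0.68 for Eno1, -1.21 for Ldhb and -1.38 for Slc2a4. Hk1 and Pgk1 missed the threshold without some single libraries, and Hk1 also with other scalings or without the filter, as given with the ratio above.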

How the results depend on the processing

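Over all alternatives the number of the 40 genes called stayed within 1.5 times its value. In polyA RNA it was 32, with 28 (without miR-106b replicate 4) to 33 when 1 library was left out and 29 to 34 under the other alternatives. In Ago2-IP RNA it was 0 throughout, for the ratio 31 (29 to 34 and 30 to 34), and between kinds of RNA 38 (37 to 38 and 37 to 39). With the replicate number as a block (replicate block) it was 32, 0, 31 and 38. Whether the replicate numbers pair the libraries is not known. Correlations of the deviations of libraries with the same number in different groups ran from -0.42 to 0.26. Libraries with different numbers were not compared in this way, so these values cannot decide it.

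No log2 change that passed the threshold changed sign in any alternative. Of the values of single genes under alternatives, 28 in polyA RNA, 25 for the ratio and 12 between kinds of RNA no longer passed, 12 in polyA RNA, 20 for the ratio and 1 between kinds passed only there (the last Aldoc, 0.86, in the likelihood ratio test), and 8 of the other pathway genes no longer passed. The cause was not tested. With 0 or 5 added to the counts, 12 of 18 pair tests passed, as with 0.5. Without 1 library, or within replicate numbers, an exact test of the pairs cannot reach 0.05. With the longest protein-coding transcript in place of all exon bases, chosen after seeing the data, 25 of 28 ratios of levels per length moved by more than 1 SD of the libraries and 4 changed sign.

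Between the scalings, the share of higher genes among all calls moved from 47.0% to 54.5% in polyA RNA (DESeq2 size factors), from 27.9% to 46.3% for the ratio and from 50.3% to 37.9% between kinds (library size only), so that counts by direction depend on the scaling. Depth limits the rare genes, such as Aldoc and the skeletal muscle markers. Splice forms, strands and kinds of cell cannot be separated in counts per gene, and RNA kind is not separable from its preparation.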
